A study of Mus musculus with 2 samples.

Results

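The miR-200 family of the mouse consists of 5 microRNA genes, Mir200b, Mir200a, Mir429, Mir200c and Mir141, which were chosen here by gene symbol out of 1973 microRNA gene rows. All 5 were found in the tables, and all 5 had at least 10 counts in each library, the level at which a gene is called detected here, as did 347 genes in all. The levels come from small RNA sequencing of whole lungs of B6NCrl mouse embryos at 16.5 days of development, with no treatment or mutation named in the labels. The single group held 2 biological replicates, each from healthy embryos of both sexes pooled, with 41 embryos in the pool of replicate 2. The labels give the sequenced RNAs as shorter than 30 bases. The tables held 6376715 gene counts for replicate 1 and 4123748 for replicate 2, and levels are given as counts per 1000000 of these (CPM).

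MicroRNAs are cut from hairpin transcripts, and the mature strand guides a silencing complex to messenger RNAs that pair with its seed, bases 2 to 8. The miR-200 family is known for keeping cells epithelial. Its mature RNAs repress Zeb1 and Zeb2, transcription factors that shut down E-cadherin and drive epithelial cells towards a mesenchymal state, and the Zeb proteins in turn repress the genes of the family. In the lung at this stage such epithelium lines the branching airways and lies within mesenchyme and vessels.

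The mature strands for which the family is named, those of the 3p arm, are shown to set out the seed groups by which the levels are compared. All 5 genes matched the RefSeq table by symbol (build GRCm38.p6). Each sequence runs 5′ to 3′ with its seed in capitals.
miR-200b-3p: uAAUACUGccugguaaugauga
miR-200c-3p: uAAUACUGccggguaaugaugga
miR-429-3p: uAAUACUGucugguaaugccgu
miR-200a-3p: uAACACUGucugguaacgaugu
miR-141-3p: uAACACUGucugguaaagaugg

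The seed AAUACUG was shared by Mir200b, Mir200c and Mir429, and the seed AACACUG by Mir200a and Mir141. Among the 1738 mature microRNAs of the RefSeq table no other gene carried either seed. Positions below are counted from the 5′ end of the mature strand. Between Mir200b and Mir200a the seeds differ by U4C, so that their perfect target matches are CAGUAUU and CAGUGUU. Outside the seed, Mir200b and Mir200c differ by U11G and A22G, and Mir200a and Mir141 by C17A and U22G. Mir429 is the least like its seed partners, with 4 differences from Mir200b (C9U, A19C, U20C and A22U) and 5 from Mir200c over the 22 bases compared. The first 16 bases of the mature Mir200a and Mir141 strands are identical, and their hairpins share a run of 17 bases, the longest that any member shared with another microRNA hairpin of the table. That run is shorter than the mature strands of 22 and 23 bases. Only exact runs were compared, which does not show how shorter or mismatched reads were placed.

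The strands of the other arm, 5p, are shown because the deposited counts add both arms of a hairpin.
miR-200b-5p: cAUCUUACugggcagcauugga
miR-200a-5p: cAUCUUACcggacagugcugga
miR-200c-5p: cGUCUUACccagcaguguuugg
miR-141-5p: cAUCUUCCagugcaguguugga
miR-429-5p: gUCUUACCagacaugguuaga

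On this arm only Mir200b and Mir200a share a seed, AUCUUAC. The grouping of the family by seed therefore holds for the 3p strands alone. How many reads came from each arm was not analysed here, so sums over a seed group below are sums over genes and may hold reads of the 5p arm.

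The genes lie in clusters on chromosomes 4 and 6 (mm10), and all are on the minus strand. In the direction of transcription the chromosome 4 cluster holds Mir200b (ENSMUSG00000065549.2, 156055681 to 156055750), Mir200a (ENSMUSG00000065400.1, 156054896 to 156054985) and Mir429 (ENSMUSG00000065427.1, 156053905 to 156053987). It spans 1846 bases, with gaps of 695 and 908 bases between hairpins. In GENCODE M21 all 3 lie inside the transcript Gm13648, Mir200b and Mir200a in its intron and Mir429 over an exon, and also in introns of the longer transcripts of Ttll10, a tubulin tyrosine ligase-like gene. The chromosome 6 cluster holds Mir200c (ENSMUSG00000065462.2, 124718322 to 124718390) and Mir141 (ENSMUSG00000065474.1, 124717914 to 124717985) within 477 bases, with a gap of 336 bases. Both are in introns of the transcript Gm15884, and Mir141 overlaps the single exon of Gm29008, a short transcript not yet classified.

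Each member is described in order of its level. The CPM of different members are compared as read numbers, with no division by hairpin length, since a read is a whole small RNA and not a fragment of a longer transcript. How evenly the library preparation captured different sequences was not measured here. Any unevenness that both libraries share would not show as a difference between them. Orders, shares and ratios of members therefore compare reads and not amounts of RNA. Mir429, of the AAUACUG seed, was at 14438 CPM in replicate 1 and 15090 in replicate 2, a mean of 14764 ± 461 (SD, n = 2). Mir200c, the first hairpin of the chromosome 6 cluster and a strong repressor of the Zeb factors, was at 9926 and 10632 CPM, a mean of 10279 ± 499 (SD, n = 2). Mir200b, its closest relative in sequence, was at 5544 and 5673 CPM, a mean of 5608 ± 91.0 (SD, n = 2). These 3 genes of the AAUACUG seed were the highest of the family in both libraries.

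The members with the AACACUG seed were lower. Mir141, the partner of Mir200c, was at 1613 CPM in replicate 1 and 1562 in replicate 2, a mean of 1587 ± 35.8 (SD, n = 2). Mir200a, the middle hairpin of the chromosome 4 cluster, was at 1076 and 979 CPM, a mean of 1028 ± 68.7 (SD, n = 2). Even this lowest member had 6862 and 4037 counts, and its exact Poisson 95% intervals were 1051 to 1102 CPM and 949 to 1010 CPM.

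**Figure D1:**
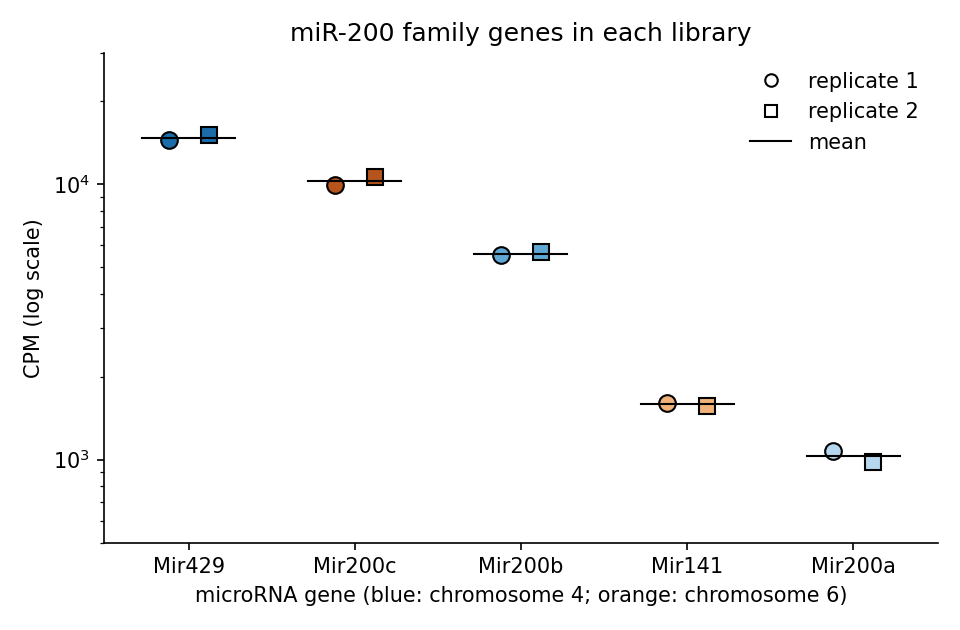
CPM of each miR-200 family gene (log axis) in replicate 1 (circles) and replicate 2 (squares), with the mean as a line; blue marks the chromosome 4 cluster and orange the chromosome 6 cluster. The 5 genes keep 1 order in both libraries, from Mir429 at a mean of 14764 CPM to Mir200a at 1028 CPM.

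The order Mir429, Mir200c, Mir200b, Mir141, Mir200a was the same in both libraries, and no member's values overlapped those of its neighbour. Mir429 was 1.45-fold above Mir200c in replicate 1 and 1.42-fold in replicate 2. Mir200c was 1.79-fold and 1.87-fold above Mir200b. The widest step was from Mir200b to Mir141, at 3.44-fold and 3.63-fold, and it is also the step from the AAUACUG to the AACACUG seed. Mir141 was 1.54-fold above Mir200a by their means. The smallest gap between means, 559.7 CPM between Mir141 and Mir200a, was larger than the SD of either gene (up to 68.7 CPM). The order was not tested across libraries and is given as what both of them show.

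The family took 3.26% of gene counts in replicate 1 and 3.39% in replicate 2 (mean 3.33% ± 0.0947, SD, n = 2). Of the family's counts, Mir429 held 44.4% ± 0.122, Mir200c 30.9% ± 0.622, Mir200b 16.9% ± 0.206, Mir141 4.77% ± 0.244 and Mir200a 3.09% ± 0.295 (means ± SD, n = 2). In whole tissue a lower share of a microRNA may come from fewer cells of a type or from less RNA in each of them, and these cannot be told apart.

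The first comparison was between the clusters. The chromosome 4 cluster summed to 21058 CPM in replicate 1 and 21741 in replicate 2, and the chromosome 6 cluster to 11538 and 12194. Chromosome 4 thus gave 64.6% of the family's counts in replicate 1 (exact Clopper-Pearson 95% interval 64.4 to 64.8%) and 64.1% in replicate 2 (63.8 to 64.3%), a mean of 64.3% ± 0.379 (SD, n = 2). That cluster also holds more hairpins, 3 against 2. Mir429 alone, at a mean of 14764 CPM, exceeded the chromosome 6 sum of 11866 ± 464 (SD, n = 2). The small shift of the share between the libraries was beyond counting error by a two-sided Fisher's exact test (odds ratio 1.02, p = 0.0018 after Benjamini-Hochberg adjustment over the 9 comparisons of shares and ratios made within the family).

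Levels did not follow position in the transcript in the same way in both clusters. On chromosome 4 the last hairpin, Mir429, was the highest and the middle hairpin, Mir200a, the lowest. On chromosome 6 the first hairpin, Mir200c, was above the second. Within the chromosome 4 cluster, Mir429 was 2.60-fold above Mir200b in replicate 1 and 2.66-fold in replicate 2, and Mir200b was 5.15-fold and 5.79-fold above Mir200a. On chromosome 6, Mir200c was 6.16-fold above Mir141 in replicate 1 (exact 95% interval 6.03 to 6.29) and 6.81-fold in replicate 2 (6.63 to 6.99).

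**Figure D2:**
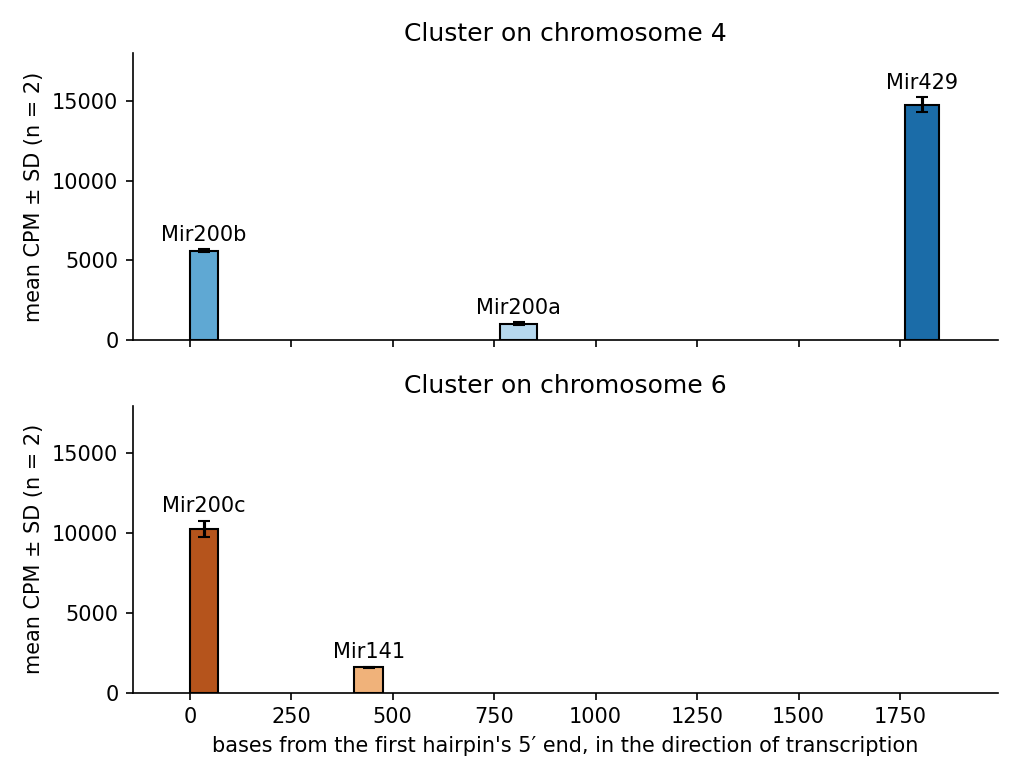
Mean CPM ± SD (n = 2) of each hairpin, drawn at its distance in bases from the 5′ end of the first hairpin of its cluster. On chromosome 4 the levels run from 5608 (Mir200b) to 1028 (Mir200a) to 14764 CPM (Mir429), and on chromosome 6 from 10279 (Mir200c) to 1587 CPM (Mir141).

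Unequal levels among hairpins of a cluster were common in these libraries. Among 60 pairs of adjacent detected microRNA genes on the same strand and within 10 kb, with a hairpin in the RefSeq table and no run of 22 bases in common with another hairpin, the median difference was 5.88-fold. Mir200b and Mir200a, at 5.46-fold, and Mir200c and Mir141, at 6.48-fold, lay near that median, with 30 and 28 pairs differing more. Mir429 and Mir200a, at 14.4-fold, were exceeded by 19 pairs. Genes whose copies share fewer than 22 bases in a row remain among the pairs. They may have lost reads matching several loci, and the part of this in the differences was not tested. The 3 pairs of the family are among the 60, and pairs of a cluster may share a transcript, so these counts are a description.

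The next comparison was between the seed groups. The AAUACUG group of Mir429, Mir200c and Mir200b summed to 29908 CPM in replicate 1 and 31394 in replicate 2 (mean 30651 ± 1051, SD, n = 2). The AACACUG group of Mir141 and Mir200a summed to 2689 and 2541 CPM (mean 2615 ± 105, SD, n = 2). The first group held 91.8% of the family's counts in replicate 1 (exact 95% interval 91.6 to 91.9%) and 92.5% in replicate 2 (92.4 to 92.7%). The groups differed between the libraries in opposite directions: the first was higher in replicate 2 and the second in replicate 1, and these directions were the same with the other scalings tried (edgeR's TMM factors and DESeq2's size factors). By a two-sided Fisher's exact test the odds of the first group in replicate 1 were 0.900 times those in replicate 2 (adjusted p = 3.0e-15).

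**Figure D3:**
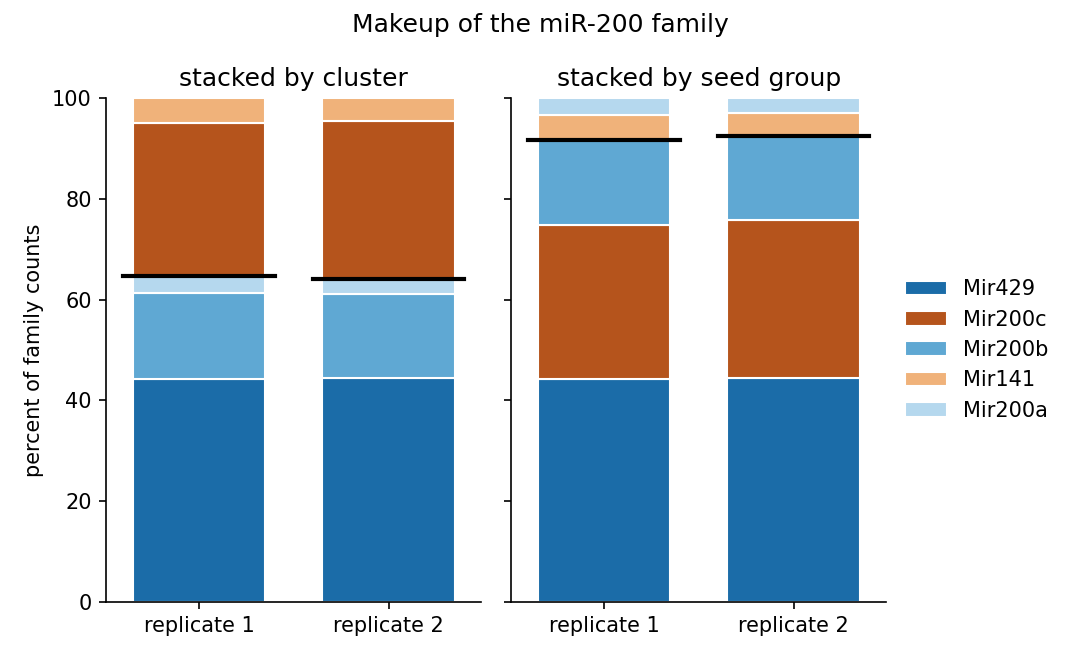
Percent of the family's counts held by each gene in each library, stacked by cluster (left) and by seed group (right); the black line closes the chromosome 4 cluster on the left, at 64.6% and 64.1%, and the AAUACUG seed group on the right, at 91.8% and 92.5%. The bars of the 2 libraries are nearly alike.

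Each cluster holds both seeds, and the AAUACUG seed was in excess in each of them. On chromosome 4 the counts of Mir200b and Mir429 together were 18.6-fold those of Mir200a in replicate 1 (exact 95% interval 18.1 to 19.0) and 21.2-fold in replicate 2 (20.5 to 21.9). On chromosome 6 the ratio of Mir200c to Mir141 was 6.16 and 6.81, as above. The excess on chromosome 4 was therefore 3.02 times that on chromosome 6 in replicate 1 (95% interval 2.92 to 3.11) and 3.12 times in replicate 2 (2.99 to 3.25). Per hairpin of the AAUACUG seed, of which chromosome 4 has 2, the ratio averaged 9.28 and 10.6, above that of chromosome 6. That average was above through Mir429, at 13.4 and 15.4 times Mir200a. Mir200b, at 5.15 and 5.79 times Mir200a, was below the chromosome 6 ratio. The comparison of the excess between the clusters was added after the values were seen. Its intervals, like all counting intervals here, cover counting error only. No molecular identifiers were reported, so copies of a molecule may be counted more than once.

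Members that share a seed were also compared across the clusters. Mir200b stood at 0.559 times Mir200c in replicate 1 and 0.534 times in replicate 2, so that the gene of chromosome 4 was the lower of the pair. Mir200a stood at 0.667 and 0.627 times Mir141, again lower on chromosome 4. Mir429 stood at 1.45 and 1.42 times Mir200c. For the first hairpin of each cluster, and for the AACACUG hairpins, the chromosome 6 gene was thus the higher in both libraries, and the larger sum of chromosome 4 rested on Mir429.

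Among all 347 detected microRNA genes the family occupied ranks 18 (Mir429), 21 (Mir200c), 31 (Mir200b), 82 (Mir141) and 99 (Mir200a) by mean CPM. Reads matching several loci (30.0% and 31.8% of all reads) are outside the gene counts, so genes with near-identical copies can rank too low. The family's ranks and its share of gene counts hold for the counted reads only. All 5 were among the 99 genes with a mean of at least 1000 CPM, and Mir429 and Mir200c among the 22 with at least 10000. The gene closest in level to each member over the 2 libraries, by distance of log2(CPM + 1), was Mir99b for Mir429 (distance 0.10), Mir98 for Mir200c (0.21), Mir652 for Mir200b (0.07), Mir425 for Mir141 (0.07) and Mir542 for Mir200a (0.16).

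**Figure D4:**
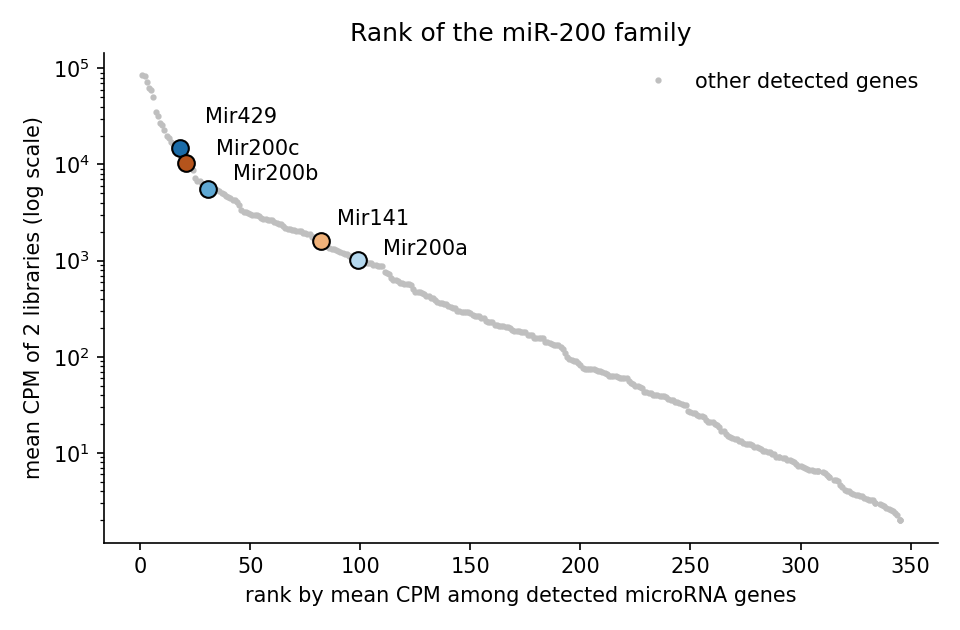
Mean CPM of the 2 libraries (log axis) against rank for the 347 detected microRNA genes, with the miR-200 family in colour. The AAUACUG members lie at ranks 18, 21 and 31, and the AACACUG members, Mir141 and Mir200a, at ranks 82 and 99.

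Other microRNAs of epithelium were present beside the family. All 7 listed (Mir182, Mir375, Mir183, Mir203, Mir205, Mir96 and Mir31) were detected, and they summed to 12403 CPM in replicate 1 and 13588 in replicate 2, against 32596 and 33935 for the miR-200 family. The family was 2.63 and 2.50 times this sum. Mir182, of the cluster that also holds Mir183 and Mir96, led the list with 3233 and 3179 CPM, a level between those of Mir200b and Mir141. Mir205, which also targets the Zeb factors, was at 1406 and 1665 CPM, near Mir141. Mir203, known from differentiating stratified epithelium, was at 1537 and 2009 CPM. Mir31 was the lowest of the list at 195 and 209 CPM.

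In the reads counted, the endothelial marker and the sum of the mesenchymal markers were above the family's sum. The sums for blood and other organs were below it. The endothelial Mir126a was at 87277 and 79120 CPM. The 7 mesenchymal and smooth muscle microRNAs, all detected, summed to 81448 and 83699 CPM, of which Mir143 gave 70224 and 72270. Mir140, the next highest by mean, was at 4751 and 4633 CPM, so among the reads counted Mir143 alone put that sum above the family. By the means, the miR-200 family was 0.403 times that mesenchymal sum. Reads matching several loci are outside the sum, so it may be too low and this ratio too high. The 5 multiciliated cell microRNAs, all detected, summed to 15458 and 19622 CPM, nearly all of it Mir449a. Blood microRNAs (3 of 4 listed were matched, all detected) summed to 1723 and 1380 CPM. The listed symbol without a match was Mir142. A gene under the symbol Mir142b, which this sum leaves out, was at 1149.5 and 1257.8 CPM, above each of the 3 matched. Of 10 listed for liver, muscle and nervous system 5 were detected, and these 10 summed to 1191 and 1792 CPM. Mir122 of liver was at 111 and 601 CPM. Of the muscle microRNAs, Mir206 of skeletal muscle was at 294 and 643 CPM, and in the opposite direction Mir208a of heart at 536 and 324, with Mir208b at 225 and 200.3 and Mir499 at 24.2 and 22.8. Mir133a-1 of muscle and Mir9-2 of the nervous system had 0 counts in both libraries, which allows up to 0.470 and 0.727 CPM in the reads counted. Genes with near-identical copies can lose reads to the line of reads matching several loci (30.0% and 31.8% of all reads), so these 0 counts do not show absence. The part of differing tissue makeup in the values of the family was not tested.

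The libraries were then compared member by member with a two-sided exact binomial test of the counts against the library totals, adjusted over all 347 detected genes. Such a test compares the reads of these 2 libraries and not conditions. Of the 5 members 4 passed, Mir200a higher in replicate 1 and Mir429, Mir200c and Mir200b higher in replicate 2. Over all detected genes 47.0% passed, and of the 99 genes with a mean of at least 1000 CPM, where counting error is small, 85.9% passed. The members' share of 4 of 5 is therefore near that of genes of like level.

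The differences themselves were small. Mir200c was 1.07-fold higher in replicate 2 (exact 95% interval 1.06 to 1.08, adjusted p = 2.1e-27 by the exact binomial test). Mir429 was 1.05-fold higher (1.03 to 1.06) and Mir200b 1.02-fold higher (1.01 to 1.04) in the same library. Mir200a was 1.10-fold higher in replicate 1 (1.06 to 1.14, adjusted p = 7.4e-06 by the exact binomial test). Mir141 was at 1.03 times its replicate 2 level in replicate 1 (1.00 to 1.07) and did not pass by library totals (adjusted p = 0.090 by the exact binomial test).

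The members' median absolute log2 ratio between the libraries was 0.06, against 0.16 over all detected genes and 0.11 over those with at least 1000 CPM on average. Some of these results depended on scaling. For Mir200b the direction changed: its log2 ratio of replicate 1 over replicate 2 was -0.03 by library totals, but 0.0037 with TMM factors and 0.019 with DESeq2 size factors, neither past the threshold. Mir141 passed with both, higher in replicate 1 (exact binomial test, adjusted p = 0.00096 with TMM factors and 7.4e-05 with DESeq2 size factors). Mir429 did not pass with DESeq2 size factors (log2 ratio -0.012, adjusted p = 0.196 by the exact binomial test), and did with TMM factors (adjusted p = 0.0011). Mir200c and Mir200a kept their direction and their call under both. By library totals 57 of all genes were called higher in replicate 1 and 106 in replicate 2, against 74 and 84 with TMM factors and 78 and 75 with DESeq2 size factors. For the members the same counts were 1 and 3, 2 and 2, and 2 and 1. Of the other epithelial microRNAs, 1 was higher in replicate 1 (Mir96) and 4 in replicate 2 (Mir205, Mir203, Mir375 and Mir183), and 2 and 4 with either other scaling. When the spread between the libraries was used as error (edgeR's exact test at a common dispersion, biological coefficient of variation 15.0%), no member passed, and none had an unadjusted p under 0.05 (lowest 0.658). No separate estimate of that spread exists, since it comes from the very difference under test.

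**Figure D5:**
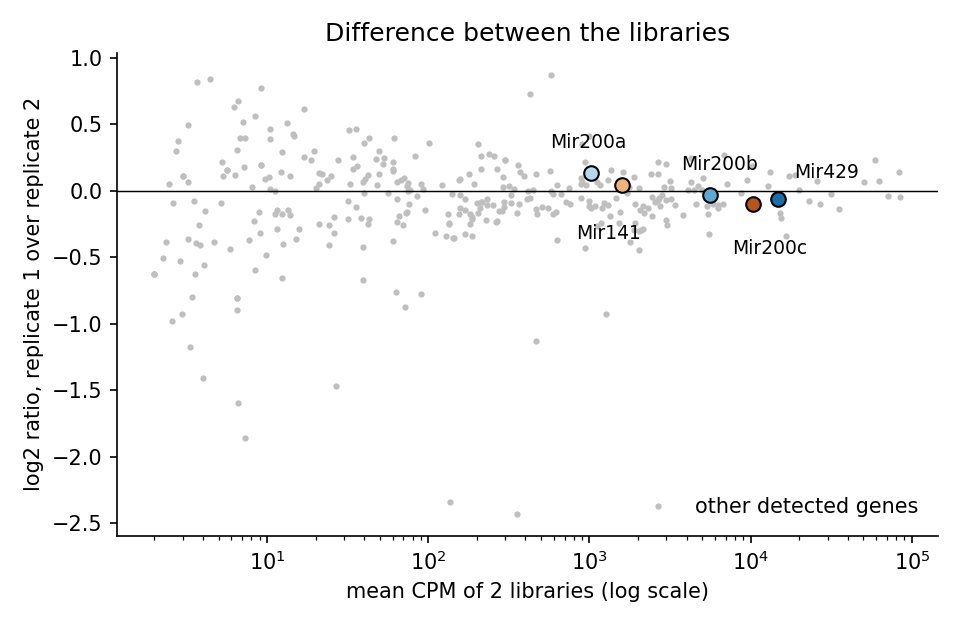
Log2 ratio of replicate 1 over replicate 2 by library totals against mean CPM (log axis) for the 347 detected genes, with the miR-200 family in colour. The 5 members lie between -0.10 (Mir200c) and 0.14 (Mir200a).

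Ratios between members do not depend on the scaling of a library. Each ratio of an AAUACUG to an AACACUG neighbour was lower in replicate 1. Mir200b to Mir200a was at 5.15 against 5.79 (two-sided Fisher's exact test, adjusted p = 1.0e-07). Mir200c to Mir141 was at 6.16 against 6.81 (Fisher's exact test, adjusted p = 1.0e-08). Mir429 to Mir200a, also neighbours, was at 13.4 against 15.4. The ratio of Mir429 to Mir200b moved least among these 4, from 2.60 to 2.66 (Fisher's exact test, adjusted p = 0.033). All 9 shares and ratios passed at these depths, with odds ratios of replicate 1 over replicate 2 between 0.870 and 1.06, and how far such shifts exceed the usual spread between pools cannot be told from 2 libraries.

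Strand could be read from the tables as well. Of the family's 207858 counts in replicate 1, 1 lay on the strand opposite to the gene, at Mir200c, and of the 139940 in replicate 2 none did. Over all microRNA genes 2.64% and 2.71% of counts were on the opposite strand.

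The start of Gm13648, the transcript that spans the chromosome 4 cluster, is shown because Zeb proteins are known to bind E-boxes of the letters CACCTG and to act on this family. RefSeq places the 300 bases at chr4:156059753-156060052, minus strand (GRCm38.p6), 250 before and 50 after the start, which lies 4052 bases upstream of the Mir200b hairpin. The motif CACCTG, searched on both strands (CAGGTG on the other), is in capitals.
Gm13648 promoter: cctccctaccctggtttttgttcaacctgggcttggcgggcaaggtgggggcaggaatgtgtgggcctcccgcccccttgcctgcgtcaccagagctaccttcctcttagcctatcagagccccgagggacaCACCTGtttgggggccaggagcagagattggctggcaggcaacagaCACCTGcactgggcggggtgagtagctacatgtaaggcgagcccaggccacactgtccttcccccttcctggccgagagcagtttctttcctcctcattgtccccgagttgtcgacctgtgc

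The motif occurred 2 times, beginning at -118 and -72 from the start. At least 1 match was found in 20.2% of the 32851 promoter windows of this length in the table, and at least 2 in 2.88%. These letters occur often, a match is no evidence of binding, and no binding or promoter activity was measured here. For the chromosome 6 cluster no promoter window is shown.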

How the data were processed

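The authors deposited a table of read counts per microRNA gene for each library, with no normalization. Per the file headers these refer to assembly mm10 and annotation M4. The aligner and the counter were not given in the sources used here. Counts regardless of strand were used, and the lines for reads not counted to a gene were kept out of totals (genes held 49.6% and 48.8% of all reads). Symbols and coordinates come from GENCODE M21 (mm10, identifiers matched without version, 1894 of 1973), sequences from RefSeq.

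CPM is the count per 1000000 gene counts. Libraries were compared across all detected genes by an exact binomial test with Benjamini-Hochberg adjustment (threshold 0.05), and shares and ratios within the family by Fisher's exact test. edgeR's quasi-likelihood test could not be used, because 1 library against 1 leaves no residual degrees of freedom. TMM factors and an exact test came from edgeR 4.0.16 and size factors from DESeq2 1.42.0, both over detected genes, in R 4.3.3. Other steps ran in Python 3.11.15 with scipy 1.17.1. The binomial test and intervals were tested on simulated counts with counting error and no other random spread between libraries. That simulation does not show how they hold where libraries vary beyond counting error. The genes named are the members, the gene closest in level to each, members of marker lists, and Mir142b beside the unmatched Mir142. Members, lists and tests were chosen with earlier results of these data known.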

Additional observations from a re-analysis of the deposited data

How the results depend on the processing

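The alternatives tried changed the scaling, the count column, the count minimum, the test and the replicate left out. With all reads of a table as library size, which adds those not counted to a gene, mean CPM was 7258 for Mir429, 5053 for Mir200c, 2757 for Mir200b, 780.6 for Mir141 and 505 for Mir200a, in unchanged order. With the sense-strand column Mir200b rose to 5763 CPM and Mir141 to 1631, above 1 SD, since the library totals were smaller. The log2 ratio of Mir200b reversed to 0.0037 (TMM) and 0.019 (DESeq2). Mir141 gained a call with both of these scalings, and Mir429 lost its call with DESeq2's. With edgeR's exact test at a common dispersion 5 genes and 0 members passed, against 163 and 4 by the binomial test. Removing the count minimum, or raising it to 100, left the members called at 4. Either replicate alone gave each level within 1 SD of its mean, which 2 values always do. No paired analysis was possible because the series has a single group. Arms, isoforms and reads matching several loci were not analysed here.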
